A study of Mus musculus with 45 samples.

Results

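Sections 1, 2, 3 and 4 of the E5.25 mouse embryo, shortly after implantation, were compared, as 2 groups, with sections 6, 7 and 8 of the same stage. These 4 and 3 sections make up 7 of the 45 samples of the series and were chosen by their section numbers. The series follows gene expression along the proximal-distal axis at E5.25, at E5.5 and at E5.75, stages named by embryonic day. Embryos were freed from the decidua, frozen in embedding medium and cut. Tissue was taken by laser capture microdissection, and total RNA was turned into libraries with Smart-seq2, which copies whole transcripts from very small inputs. All sections were untreated. No strain, sex, genotype or batch is given in the labels. The labels number no embryos and speak of the E5.25 embryo in the singular, so the sections are not known to be separate embryos. A p-value here compares sections and would be too small for a claim on embryos in general. Which end of the axis section 1 comes from is not given, and section 5 was not analysed here.

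At these stages the mouse embryo is a cylinder. Its epiblast, which forms the embryo proper, depends on the transcription factor Pou5f1 (Oct4) and is joined to the extraembryonic ectoderm, a trophoblast stem cell tissue that depends on Cdx2, Eomes and Elf5 and signals to the epiblast through Bmp4. The ectoplacental cone caps the extraembryonic ectoderm and contributes to the placenta, and visceral endoderm wraps both tissues and secretes apolipoproteins. Each section is a mixture of cells. In such bulk samples, fewer cells of a type and less RNA per cell cannot be told apart.

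The windows upstream of Pou5f1 and Cdx2 are shown because these genes mark the epiblast and the extraembryonic ectoderm, and because POU factors such as Oct4 bind the octamer ATGCAAAT. Each runs from 250 to 31 bases before the RefSeq start in build GRCm38.p6, 5′ to 3′ on the gene's strand, at chr17:35505782-35506001 (plus strand) for Pou5f1 and at chr5:147307280-147307499 (minus strand) for Cdx2. Capitals mark matches on either strand to the octamer ATGCAAAT, to the GC box GGGCGG bound by Sp factors, and to GCCNNNGGC, a form of the AP-2 motif.
Pou5f1: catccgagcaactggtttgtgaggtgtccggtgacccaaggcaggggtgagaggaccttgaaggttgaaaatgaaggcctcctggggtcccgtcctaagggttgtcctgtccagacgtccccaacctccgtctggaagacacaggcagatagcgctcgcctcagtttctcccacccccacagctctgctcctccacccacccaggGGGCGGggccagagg
Cdx2: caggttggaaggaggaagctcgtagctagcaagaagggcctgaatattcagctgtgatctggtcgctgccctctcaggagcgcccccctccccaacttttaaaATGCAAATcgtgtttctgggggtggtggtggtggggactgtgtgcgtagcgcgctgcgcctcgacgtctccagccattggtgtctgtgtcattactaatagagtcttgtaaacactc
The Pou5f1 window held 1 GC box and the Cdx2 window held 1 octamer, and neither held GCCNNNGGC. Among 32851 RefSeq windows of this length, 1.49% held the octamer, 28.5% the GC box and 11.9% GCCNNNGGC. These matches describe letters only, and no binding was measured.

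Sections 1-4 yielded fewer genes than sections 6-8, and this stands beside every result below. With detection set at an FPKM (fragments per kilobase of transcript, scaled to library size) of 1 or more, sections 1, 2, 3 and 4 held 2607, 3374, 4282 and 2046 genes. Sections 6, 7 and 8 held 6461, 5636 and 5955 of the 10176 genes in the table. The groups did not overlap. Sections 1-4 averaged 3077 ± 970.2 genes (SD, n = 4), against 6017 ± 416 genes in sections 6-8 (SD, n = 3), a difference of -2940.1 genes. An exact permutation test, in which the 1-sided p is doubled, gave a 2-sided p of 0.0571. This is the smallest that this form of the test allows with 35 arrangements. With sections 3 and 4 as the only low side, the exact permutation p was 0.2, again the smallest possible in this form.

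**Figure D1:**
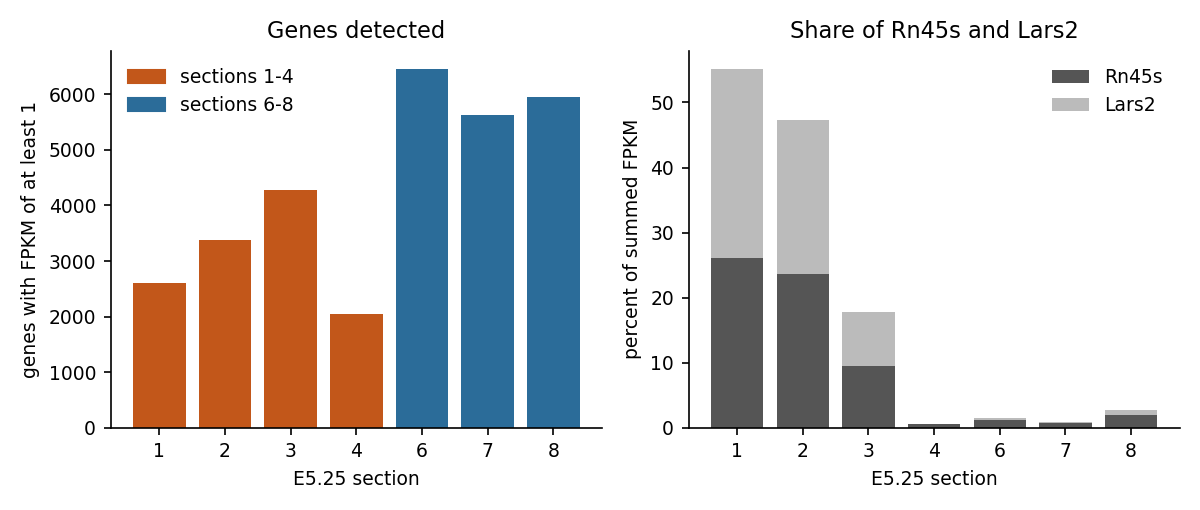
Left, genes detected (FPKM 1 or more) in each E5.25 section; right, percent of the summed FPKM taken by Rn45s (dark) and Lars2 (light). Sections 1-4 held 2046 to 4282 genes and sections 6-8 held 5636 to 6461, while both transcripts together took 55.2% and 47.3% of sections 1 and 2.

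The sections of the low side were unlike each other. Rn45s, the ribosomal RNA precursor, and Lars2, a mitochondrial leucyl-tRNA synthetase gene, together took 55.2%, 47.3%, 17.7% and 0.586% of the summed FPKM in sections 1, 2, 3 and 4. In sections 6, 7 and 8 they took 1.45%, 0.828% and 2.71%. Section 4 thus had the fewest detected genes of all 7 and the lowest share of these transcripts, so low detection and a high share did not coincide there. Across the 7148 tested genes, the Spearman correlation was 0.64 to 0.75 among sections 6-8 and 0.39 between sections 3 and 4. It was 0.31 to 0.41 between sections 3 or 4 and sections 6-8, and 0.03 to 0.12 between sections 1 or 2 and sections 6-8. The genes of a section are not independent replicates, so these values are descriptions.

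Missing values followed a gene's level. Of genes with a mean log2 value of 3 to 4 in sections 6-8, 68.2%, 55.1%, 22.2% and 56.1% were listed at 0 in sections 1, 2, 3 and 4. Of the 101 genes at a mean of 8 or more, 16.8%, 10.9%, 0.99% and 0.99% were listed at 0. Section 3 missed the fewest genes at the lower levels. Of 4016 genes detected in all of sections 6-8, 548 (13.6%) were listed at 0 in all of sections 1-4. In the other direction, 1 of 597 genes detected in all of sections 1-4 (0.168%) was listed at 0 in all of sections 6-8.

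**Figure D2:**
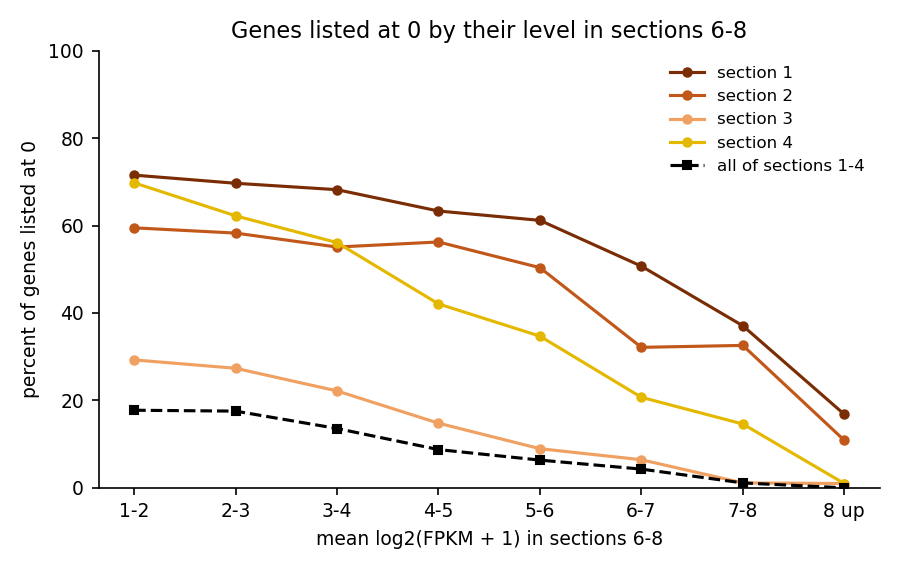
Percent of genes listed at 0 in each of sections 1-4, and in all of them (dashed), by their mean log2(FPKM + 1) in sections 6-8 over the genes detected in all of sections 6-8. Shares fall with level in section 1 from 71.5% to 16.8%, and section 3 lies under the other sections at the lower levels.

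In the fit across all genes, 22 of 7148 genes tested were higher in sections 1-4 (0.308%) and 1454 were lower (20.3%), by limma with Benjamini-Hochberg adjustment at 0.05. In 2095 genes (29.3%) every value of sections 1-4 lay under those of sections 6-8, and in 111 (1.55%) every value lay above. The median difference over all tested genes was -1.07 on the log2(FPKM + 1) scale. All differences below are sections 1-4 minus sections 6-8 on that scale. Of the 1454 lower genes, 730 were listed at 0 in all of sections 1-4 and 1246 in at least 3 of them. Over the 532 genes detected in all 7 sections, the median difference was -0.02, 11 genes were higher (2.07%) and 7 were lower (1.32%). When each section's count of detected genes entered the model, no gene passed in either direction, with 267 higher and 382 lower at an unadjusted p under 0.05. That count did not overlap between the groups, so it nearly repeats the group label in a fit of 7 sections. Such a fit can hardly separate count from group, and the loss of calls does not show the part of detection. After quantile normalization 4 genes were higher (0.056%) and 128 lower (1.79%). Between 4 and 74 genes were higher and between 915 and 2132 lower when 1 section was left out. Without section 3 the counts were 74 and 2132, and without section 1 they were 19 and 915. Without sections 2, 6, 7 and 8 in turn, 11, 4, 8 and 9 genes were higher.

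Most extraembryonic ectoderm genes were lower in sections 1-4. Of 18 tested members, 14 were lower and none was higher, and the median difference was -2.75, with genes listed at 0 entered as 0. The count was 13 or 14 when any 1 section was left out. Of the members, 17 were detected in all of sections 6-8, of which 14 were lower and 9 were listed at 0 in all of sections 1-4. Among the 2948 genes detected in all of sections 6-8 at a mean log2 value of 2 to 6 there, 32.3% were lower and 13.9% were listed at 0 in all of sections 1-4. Of the 19 members in the table, 3, 3, 4 and 2 were detected in sections 1, 2, 3 and 4, against 18 in each of sections 6, 7 and 8. After quantile normalization 4 of the 18 were lower, among them Bmp4, Elf5 and Eomes. The part of low detection in these calls was not tested.

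Cdx2, the caudal-type homeobox factor whose upstream window is shown above, was listed at 0 in all of sections 1-4, against 3.26, 3.44 and 3.21 on the log2 scale in sections 6, 7 and 8 (adjusted p = 0.0063, limma). Elf5, an Ets factor of trophoblast stem cells, was also listed at 0 in sections 1-4, against 4.23, 4.49 and 4.11 (adjusted p = 0.0063, limma). Eomes, a T-box factor, had 1.19, 0.85, 1.11 and 0 in sections 1, 2, 3 and 4, against 5.47, 5.44 and 5.74 in sections 6, 7 and 8. Its groups lay far apart, with a difference of -4.76 ± 0.71 (SE, adjusted p = 0.0064, limma). Tfap2c, which encodes AP-2 gamma, Ets2 and the orphan nuclear receptor gene Esrrb were listed at 0 in every one of sections 1-4. In sections 6, 7 and 8 Tfap2c had 3.43, 2.20 and 3.65, Ets2 had 3.4, 3.95 and 3.07, and Esrrb had 2.56, 3.05 and 2.83. All 3 passed the test, with adjusted p from 0.0064 to 0.0084 in limma.

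The ligand genes of this tissue followed the same order. Bmp4 was listed at 0 in sections 1-4, against 4.98, 5.26 and 4.74 in sections 6, 7 and 8 (adjusted p = 0.0063, limma). Bmp8b, another BMP ligand gene, was listed at 0 in sections 1-4, against 4.0, 3.10 and 2.08 in sections 6, 7 and 8 (adjusted p = 0.0101, limma). Id2, a BMP target that encodes an inhibitor of helix-loop-helix factors, was listed at 0 in sections 1-4, against 6.71, 6.46 and 6.57. It was among the genes with the largest fitted difference (adjusted p = 0.0063, limma). Id1, a related target, did not share this pattern. Id1 had 0, 0, 5.78 and 6.63 in sections 1, 2, 3 and 4, against 0.64, 3.21 and 1.70 in sections 6, 7 and 8, and did not pass (adjusted p = 0.67, limma). Over the BMP list as a whole, 3 of 9 tested genes were lower and none was higher, near the 32.3% of genes of like level that were lower.

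The proprotein convertases Pcsk6 and Furin, which cleave the Nodal precursor and are made by the extraembryonic ectoderm, were the lower genes of the Nodal list, 2 of 7 tested, a share near the 20.3% of all tested genes and the 32.3% of the 2948 genes of like level in sections 6-8. Pcsk6 was listed at 0 in sections 1-4, against 2.13, 2.23 and 2.68 in sections 6, 7 and 8 (adjusted p = 0.0080, limma). Furin had 0, 0, 0.15 and 0 in sections 1, 2, 3 and 4, against 1.30, 1.41 and 1.41. These levels lie near an FPKM of 1, where most genes were also missed in sections 1, 2 and 4. Of 12 Wnt genes, 3 were lower, among them the ligands Wnt6 and Wnt7b. Of 10 FGF genes, 2 were lower, the receptor gene Fgfr1 and the feedback inhibitor gene Spry2, whose call was lost without section 6. Both counts are near the 20.3% and 32.3% of those backgrounds, so they are no result about these pathways.

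Ectoplacental cone and trophoblast genes were lower as well, with 8 of 11 tested lower, none higher and a median difference of -2.61, against 20.3% lower over all tested genes. Without section 2, 6 or 8, 5 were lower, and without the others 6 or 7, and 7 of the 8 members detected in all of sections 6-8 were lower. Phlda2, an imprinted gene that restrains placental growth, was listed at 0 in sections 1-4, against 6.36, 6.95 and 5.76 in sections 6, 7 and 8 (adjusted p = 0.0063, limma). Fabp3, a fatty acid binding protein gene, had 0, 0, 0.98 and 0 in sections 1, 2, 3 and 4, against 8.01, 7.51 and 7.56. Its difference of -7.45 ± 0.75 was the largest among the genes named here (SE, adjusted p = 0.0063, limma). Igf2, an imprinted growth factor gene, had 0, 0, 1.10 and 0, against 4.54, 4.69 and 4.96, and H19, the non-coding RNA of the same locus, had 2.83, 0.82, 2.44 and 4.43, against 6.28, 5.93 and 6.30. H19 was above 0 in all 7 sections but under an FPKM of 1 in section 2. The difference of H19 was -3.54 ± 1.01 (SE, adjusted p = 0.0399, limma). Its call was lost without section 1, 2, 6, 7 or 8. Hand1 and Gata3, trophoblast transcription factors, were also lower. Of 3 tested decidua genes, which mark maternal tissue, 1 was lower, and the median difference was -0.65. The lower gene, Htra1, had 0, 0, 0 and 0.21 in sections 1-4, against 3.44, 3.03 and 1.87 in sections 6, 7 and 8. Of 9 decidua genes in the table, 1, 2, 2 and 0 were detected in sections 1, 2, 3 and 4, against 1, 4 and 4 in sections 6, 7 and 8, with summed FPKM of 0.158 to 12.3, against 10.2 to 30.4. The 2 blood genes in the table were at 0 in sections 1-4, against summed FPKM of 4.81 to 14. Of these, the hemoglobin entry Hba-a1Hba-a2 had 0.73, 3.52 and 3.29 in sections 6, 7 and 8. The part of these decidua and blood genes in the result was not tested.

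**Figure D3:**
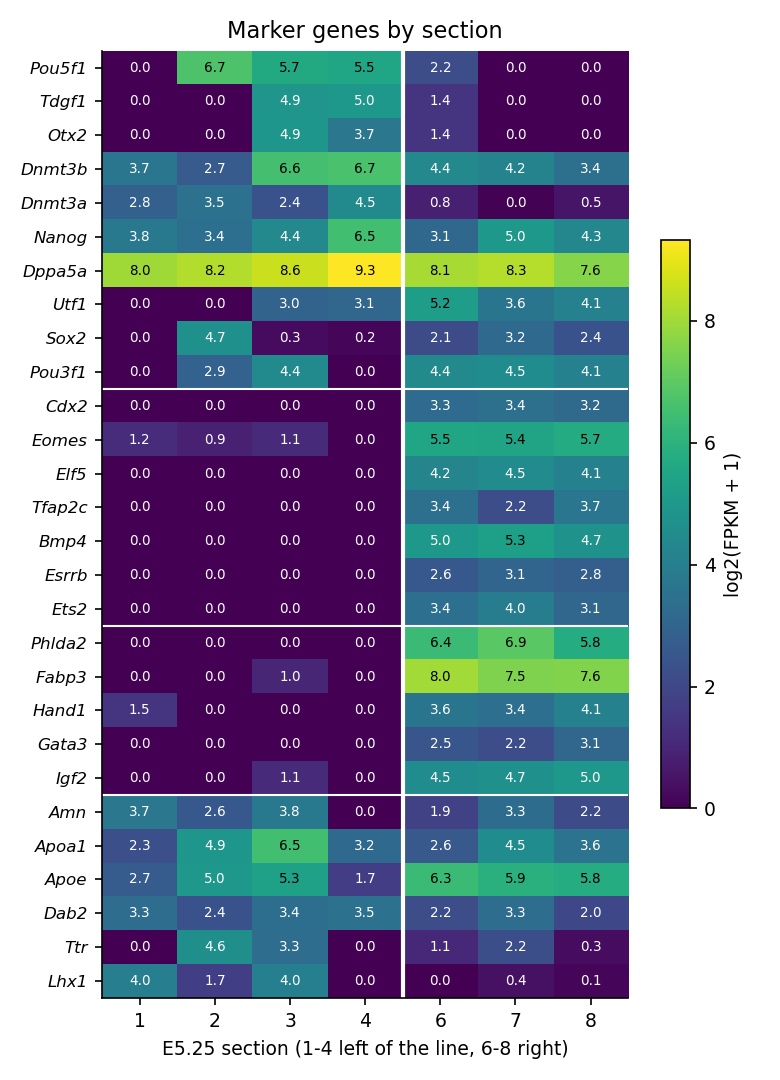
Log2(FPKM + 1) of marker genes in each E5.25 section, sections 1-4 left of the white line and sections 6-8 right of it; from top to bottom, epiblast and pluripotency genes, extraembryonic ectoderm genes, ectoplacental cone and trophoblast genes, and visceral endoderm genes. The blocks of extraembryonic ectoderm and trophoblast genes are at or near 0 in sections 1-4, the first is mixed, and Pou5f1 reads 6.71, 5.65 and 5.49 in sections 2, 3 and 4.

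Epiblast genes did not mark sections 1-4 as a group. None of 16 tested epiblast genes was higher or lower in sections 1-4, and their median difference was 0.21. Without section 1, 1 epiblast gene was higher, and without section 2, 1 was lower. None passed when any other section was left out. Over all tested genes 20.3% were lower, 0.308% were higher and the median difference was -1.07. Of the 18 in the table, 7, 9, 15 and 13 were detected in sections 1, 2, 3 and 4, against 14, 11 and 10 in sections 6, 7 and 8. Section 4 thus detected more of them than sections 7 and 8 while detecting fewer genes in all. Pou5f1 had 0, 6.71, 5.65 and 5.49 in sections 1, 2, 3 and 4, against 2.20, 0 and 0 in sections 6, 7 and 8. Its zero in section 1 lay beside high values in the other 3, and the difference of 3.73 ± 1.60 did not pass (SE, adjusted p = 0.127, limma). Tdgf1, the Nodal co-receptor gene Cripto, had 0, 0, 4.87 and 4.97, against 1.43, 0 and 0. Otx2, a homeobox gene of the epiblast and the anterior visceral endoderm, had 0, 0, 4.89 and 3.68, against 1.39, 0 and 0. Neither passed, and both were listed at 0 in sections 1 and 2.

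Other pluripotency genes were found on both sides. Nanog had 3.79, 3.41, 4.38 and 6.5 in sections 1, 2, 3 and 4, against 3.14, 4.96 and 4.31 in sections 6, 7 and 8. Dppa5a had 7.99, 8.24, 8.58 and 9.32, against 8.11, 8.30 and 7.62. The groups overlapped for both genes. Utf1 had 0, 0, 2.98 and 3.09, against 5.24, 3.61 and 4.10, and Sox2 had 0, 4.68, 0.26 and 0.18, against 2.13, 3.18 and 2.36. Neither passed, although every Utf1 value of sections 6-8 lay above those of sections 1-4. Sox2 is also a gene of the extraembryonic ectoderm. Pou3f1, a POU factor of the primed epiblast, had 0, 2.92, 4.44 and 0, against 4.44, 4.55 and 4.11.

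Among formative and primed pluripotency genes, Dnmt3a was the 1 of 11 tested that was higher, and none was lower. The shares over all tested genes were 0.308% higher and 20.3% lower. Dnmt3a encodes a de novo DNA methyltransferase. It had 2.85, 3.49, 2.35 and 4.46 in sections 1, 2, 3 and 4, against 0.82, 0.04 and 0.51 in sections 6, 7 and 8. The groups did not overlap, and the difference was 2.83 ± 0.72 (SE, adjusted p = 0.0260, limma). The call was lost without section 6, 7 or 8. Dnmt3b, the other de novo enzyme, had 3.65, 2.66, 6.57 and 6.65, against 4.40, 4.16 and 3.44. Sections 3 and 4 were the 2 highest and sections 1 and 2 lay among or under sections 6-8.

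Of 17 tested visceral endoderm genes, 1 was lower, none was higher and the median difference was 0.08. All tested genes together had a median difference of -1.07, with 20.3% lower and 0.308% higher. Of the 22 in the table, 12, 11, 15 and 6 were detected in sections 1, 2, 3 and 4, against 10, 17 and 13 in sections 6, 7 and 8. Apoa1, an apolipoprotein gene, had 2.26, 4.88, 6.5 and 3.18, against 2.59, 4.52 and 3.57, and Dab2, an endocytic adaptor gene, had 3.32, 2.35, 3.38 and 3.5, against 2.21, 3.35 and 2.02. Both overlapped between groups. Apoe, another apolipoprotein gene, had 2.73, 4.96, 5.32 and 1.68, against 6.35, 5.93 and 5.78. Every Apoe value of sections 1-4 lay under those of sections 6-8, but the gene did not pass (adjusted p = 0.159, limma). Ttr, the transthyretin gene, was listed at 0 in sections 1 and 4, and Amn, the amnionless gene, in section 4. Section 1 detected more of these genes than section 6 although it held fewer genes in all. Apoa2, the lower gene, was listed at 0 in sections 1-4, against 1.31, 3.16 and 1.63 (adjusted p = 0.0240, limma), and lost its call without section 1, 2 or 4. Lhx1, a gene of the distal and anterior visceral endoderm, had 4.0, 1.71, 4.03 and 0, against 0, 0.40 and 0.13, and did not pass (adjusted p = 0.143, limma).

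**Figure D4:**
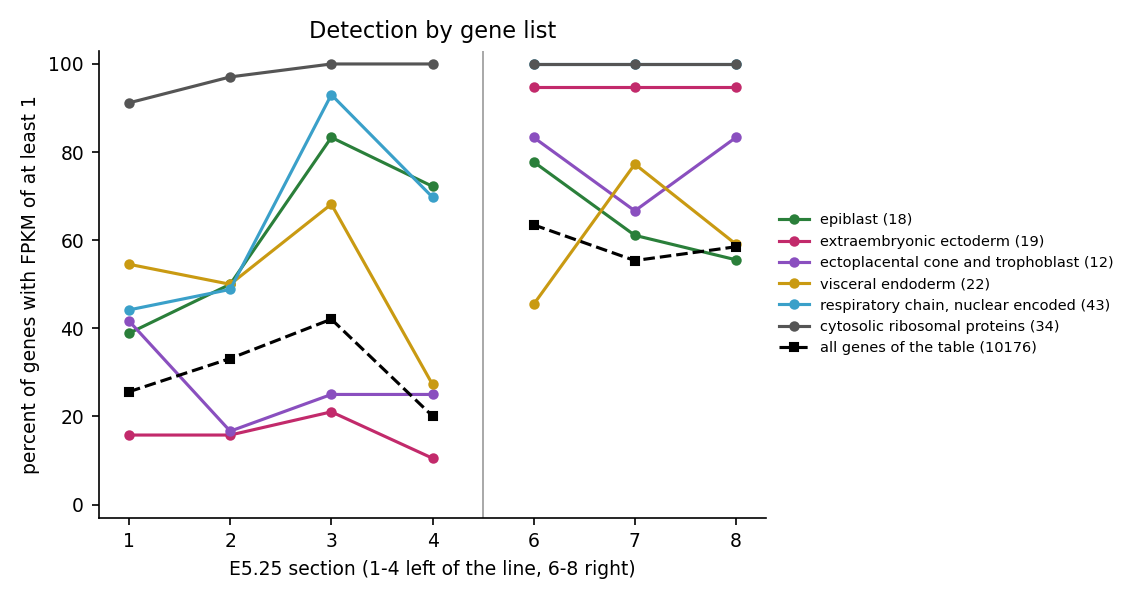
Percent of each list's genes detected in each E5.25 section, with the number of genes of the list in the table in brackets and all genes of the table dashed; in sections 6-8 the respiratory chain and ribosomal protein points coincide at the top. Extraembryonic ectoderm genes lie under the dashed line in sections 1-4 and over it in sections 6-8, whereas epiblast genes lie over it in sections 1-4 and in sections 6 and 7.

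Ribosomal protein genes were detected in nearly every section, and fewer respiratory chain genes were detected in sections 1-4, where fewer genes were detected in general. All 34 ribosomal protein genes of the list were detected in sections 3, 4, 6, 7 and 8. Sections 1 and 2 detected 31 and 33 of them, and 1 of the 34 was lower. This was Rpl10, which had 5.36, 5.39, 6.79 and 5.63, against 8.59, 8.04 and 7.98, and lost its call without any section but section 3. Rps29, a ribosomal protein gene outside this list and detected in all 7 sections, was also lower. Of 43 nuclear genes of the respiratory chain, 19, 21, 40 and 30 were detected in sections 1, 2, 3 and 4, against 43 in each of sections 6, 7 and 8, and 9 were lower. Of all genes in the table, 25.6%, 33.2%, 42.1% and 20.1% were detected in sections 1, 2, 3 and 4. Sections 6, 7 and 8 detected 63.5%, 55.4% and 58.5%. Ndufb9, a complex I subunit gene, was listed at 0 in all of sections 1-4, against 6.78, 6.76 and 5.56. Cox7c, a complex IV subunit gene, had 8.91, 7.77, 9.46 and 11.6, against 9.66, 10.6 and 9.07, and the groups overlapped. Gapdh had 6.54, 6.36, 7.35 and 8.01, against 7.80, 7.93 and 7.73. Because such genes were also listed at 0, a 0 in sections 1-4 is reported as listed at 0 and not as absence. Of the lists of this kind, 8 of 19 cholesterol synthesis genes, 4 of 27 proteasome genes, 4 of 25 cell cycle genes and 3 of 14 glycolysis genes were lower, and none was higher. Over all tested genes 20.3% were lower, and the respiratory chain, proteasome, cell cycle and glycolysis counts are near or under that share. Median differences were -3.04 for the respiratory chain, -2.39 for the proteasome, -2.32 for the cell cycle, -2.30 for cholesterol synthesis and -1.53 for glycolysis. All tested genes had a median difference of -1.07, and the extraembryonic ectoderm list had -2.75. Without section 3, the lower counts were 13 for the respiratory chain, 12 for cholesterol synthesis, 8 for the proteasome, 11 for the cell cycle and 4 for ribosomal proteins. Without section 6 they were 3, 6, 2, 3 and 0 for these lists.

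Further genes were named for the size of their fitted differences, and whether they share a tissue was not tested. Ly6a, a surface antigen gene also called Sca-1, was listed at 0 in sections 1-4, against 7.36, 7.34 and 6.49 in sections 6, 7 and 8. Krtcap2, a subunit gene of the oligosaccharyltransferase, and Tbca, a tubulin-folding cofactor gene, were also listed at 0 in sections 1-4. Krtcap2 had 7.54, 6.84 and 6.46 and Tbca had 6.52, 6.93 and 6.16 in sections 6, 7 and 8. Lgals1, which encodes galectin-1, had 0, 0, 0 and 0.56, against 7.31, 7.11 and 6.20. Ndufb8 and Mrps21, of mitochondrial complex I and the mitochondrial ribosome, had a value above 0 only in section 3 of the low side.

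Rhox5, an X-linked homeobox gene of extraembryonic tissue, is 1 of 7 genes that were lower although detected in all 7 sections. It had 7.53, 2.86, 3.17 and 4.79 in sections 1, 2, 3 and 4, against 8.83, 8.79 and 8.45 in sections 6, 7 and 8. Section 1 lay close to sections 6-8 and the other 3 lay far under them, with a difference of -4.10 ± 1.18 (SE, adjusted p = 0.0416, limma). The call was lost without section 2, 3, 4, 6, 7 or 8. Mat2a, which encodes a methionine adenosyltransferase, had 1.09, 1.27, 2.77 and 1.42, against 5.27, 5.40 and 6.13. Its groups did not overlap and its call held without any 1 section (adjusted p = 0.0123, limma). Mat2a did not pass with sections 3 and 4 as the only low side (adjusted p = 0.0585, limma). After quantile normalization it did not pass either (adjusted p = 0.0806, limma).

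Few genes were higher in sections 1-4, and 11 of the 22 were detected in all 7 sections. Fut8, the fucosyltransferase gene of core fucosylation, had 8.91, 8.89, 7.36 and 7.70 in sections 1, 2, 3 and 4, against 3.65, 5.14 and 4.43 in sections 6, 7 and 8. Its difference was 3.81 ± 0.79 and its call held without any 1 section (SE, adjusted p = 0.0134, limma). Fut8 did not pass with sections 3 and 4 as the only low side (adjusted p = 0.0610, limma). Zfp488, a zinc finger gene, had 9.48, 9.74, 5.07 and 6.94, against 2.42, 3.88 and 3.75. Sections 1 and 2, those with the high Rn45s and Lars2 shares, carried its highest values, and the call was lost without section 1, 2, 4, 6, 7 or 8. H2-Q4, a gene of the class I histocompatibility family, and Prpf38b, a splicing factor gene, were likewise highest in sections 1 and 2, and both lost their calls without section 1, 2, 6, 7 or 8. Reads of H2-Q4 may be shared with its close relatives, so its value is uncertain.

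Phc1, a Polycomb repressive complex 1 subunit gene, had 3.24, 3.99, 3.09 and 5.30 in sections 1, 2, 3 and 4, against 0.77, 1.37 and 0 in sections 6, 7 and 8, a difference of 3.19 ± 0.82 (SE, adjusted p = 0.0268, limma). Its call was lost without section 6 or 8. Chd9, a chromodomain helicase gene, had 3.97, 3.90, 3.15 and 2.16, against 0.05, 0.05 and 0. The groups lay far apart, with a difference of 3.26 ± 0.67, and the call held without any 1 section (SE, adjusted p = 0.0126, limma). Chd9 did not pass with sections 3 and 4 as the only low side (adjusted p = 0.0576, limma). Kdm5b, a histone H3 lysine demethylase gene, and Sox11, a SoxC factor gene, were chosen for mention after their values were seen. Kdm5b had 2.28, 3.20, 2.94 and 3.56, against 0.82, 0 and 1.36, and Sox11 had 1.48, 1.59, 2.21 and 3.10, against 0.30, 0 and 0.12. For both genes the groups did not overlap. Both calls were lost without section 6, 7 or 8, and that of Kdm5b also without section 2 or 4. The nuclear RNA Malat1 had 9.40, 9.12, 8.71 and 8.98, against 6.15, 7.45 and 7.03 (adjusted p = 0.0268, limma), and lost its call without section 1, 2 or 6.

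With sections 3 and 4 as the only low side, Pou5f1 and Tdgf1 passed the test. Of 6483 genes tested, 5 were higher in sections 3-4 (0.0771%) and 205 were lower (3.16%), by limma at an adjusted p of 0.05. Pou5f1 had 5.65 and 5.49 in sections 3 and 4, against 2.20, 0 and 0 in sections 6, 7 and 8, a difference of 4.84 ± 0.92 (SE, adjusted p = 0.0449, limma). Tdgf1, with 4.87 and 4.97 against 1.43, 0 and 0, differed by 4.44 ± 0.78 (SE, adjusted p = 0.0437, limma). Tro, the X-linked trophinin gene, had 3.17 and 5.68, against 0, 0.18 and 0 (adjusted p = 0.0483, limma). The other 2 were Tmem8, a membrane protein gene, and the unnamed gene model 4932411L15, both mentioned after their values were seen. Of 14 tested epiblast genes, 2 were thus higher and none was lower, with a median difference of 0.36, against -1.09 over all genes tested. Utf1 and Sox2 had negative differences in this comparison and did not pass. Otx2 and Dnmt3b were highest in sections 3 and 4 but did not pass, with adjusted p of 0.0534 and 0.0765 in limma. Only 1 of the 5 genes, 4932411L15, was also among the 22 higher genes of the whole comparison. With 2 sections on the low side, the design rests on 5 libraries.

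The extraembryonic genes kept their direction in sections 3-4. Of the lists, 6 of 18 extraembryonic ectoderm genes and 4 of 10 ectoplacental cone and trophoblast genes were lower, none was higher, and the medians were -2.96 and -2.97. Over all 6483 genes tested in this comparison, 3.16% were lower and the median difference was -1.09. Cdx2, Elf5, Bmp4, Ets2 and Eomes passed, with adjusted p from 0.0402 to 0.0480 in limma, whereas Tfap2c, at 0.0643, did not. Rhox5, with 3.17 and 4.79 in sections 3 and 4, passed as well (adjusted p = 0.0402, limma). Sections 3 and 4 still held 4282 and 2046 genes, and the part of that in these calls was not tested.

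With sections 1 and 2 as the only low side, 317 of 6629 genes were higher (4.78%) and 2111 lower (31.8%), and Pou5f1, Tdgf1 and Otx2 were at 0 in section 1. Section 2 had Pou5f1 at 6.71, the highest value of the 7 sections, without Tdgf1 or Otx2. Of the 205 genes lower in sections 3-4, 183 were among the 1454.

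The E5.75 embryo gives the same genes in a separately normalized table, where sections 1-8 (8 sections) were fitted against sections 10-19 (9 sections; sections 9 and 13 were not analysed here). There 234 of 11149 genes were higher in sections 1-8 (2.1%) and 1163 were lower (10.4%), by limma. Detection was again lower at the start, with 3211 and 3424 genes in sections 1 and 2 and 5303 to 7689 in sections 3-8, against 6916 to 8217 in sections 10-19. Of the 22 genes higher at E5.25, 8 were higher at E5.75 (36.4%), against 1.82% of the 6911 genes tested at both stages, and none was lower. They include Chd9, Dnmt3a, Fut8, Kdm5b, Nlrp1a, Phc1 and Sox11. Of the 1454 lower genes, 1451 were tested at E5.75 and 389 were lower there (26.8%), against 13.2% of the genes tested at both, and 2 were higher. No test was made across the 2 tables.

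**Figure D5:**
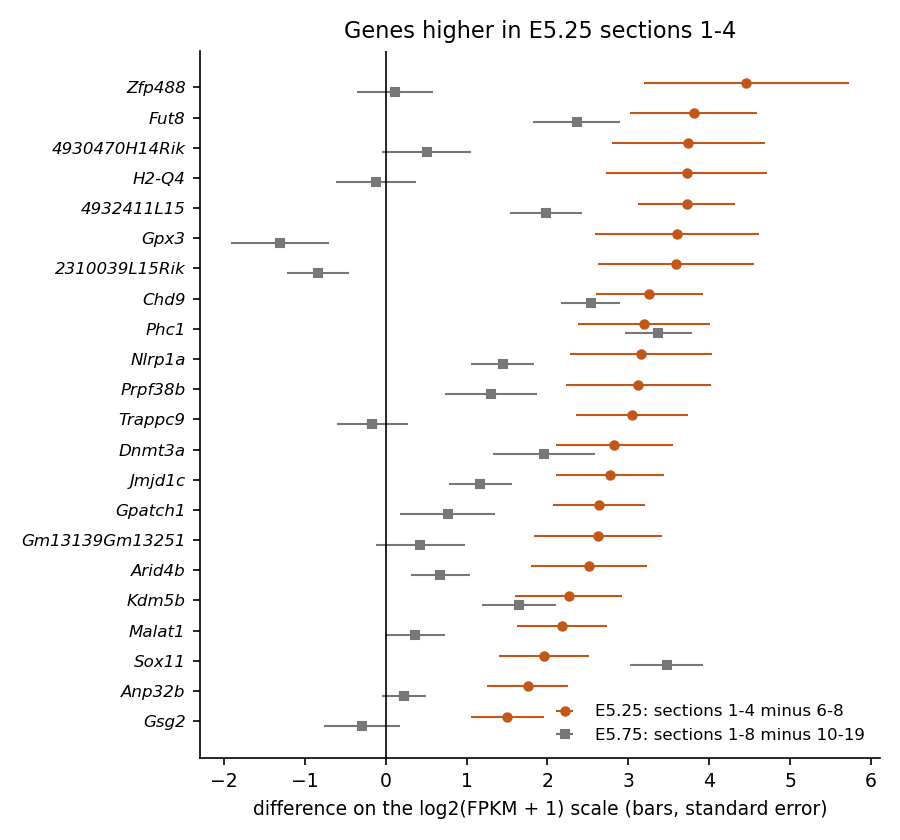
Differences with standard errors of the 22 genes higher in E5.25 sections 1-4, at E5.25 (circles, sections 1-4 minus 6-8) and at E5.75 (squares, sections 1-8 minus 10-19). Phc1 and Sox11 lie over 3 at E5.75, whereas Zfp488, H2-Q4 and Trappc9 lie near 0 there; the circles were chosen for being high.

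Pou5f1 and Otx2 passed the test at E5.75. Pou5f1 had a median of 6.97 (range 0 to 7.53) in sections 1-8, against 0 (range 0 to 3.70) in sections 10-19, a difference of 5.26 ± 0.83 (SE, adjusted p = 0.000150, limma). Otx2 had a median of 4.37 (range 1.89 to 5.58), against 0 in all of sections 10-19 (adjusted p = 1.15e-06, limma). Over all 11149 genes tested at E5.75, 2.1% were higher, 10.4% were lower and the median difference was -0.45. At E5.75, 9 of 18 epiblast genes were higher and 1 was lower, and 9 of 15 formative and primed genes were higher. Sox2, Utf1 and Pou3f1 did not pass at E5.75, with adjusted p of 0.167, 0.681 and 0.0762 in limma. In turn, 17 of 20 extraembryonic ectoderm genes were lower, none was higher, and 11 of 16 ectoplacental cone and trophoblast genes were lower. Elf5 had a median of 0 (range 0 to 1.52) in sections 1-8, against 5.23 (range 3.60 to 5.80) in sections 10-19. Other genes differed in their calls between the stages. Ccnb1, the cyclin B1 gene listed at 0 in all of E5.25 sections 1-4 against 4.65, 4.43 and 4.0 in sections 6, 7 and 8, had a median of 4.0 in E5.75 sections 1-8, against 3.94 in sections 10-19 (adjusted p = 0.655, limma). Zfp488 had a median of 5.24 in E5.75 sections 1-8, against 5.70 in sections 10-19 (adjusted p = 0.891, limma). Whether the stages differ was not tested.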

How the data were processed

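Per the labels' protocols, frozen sections were laser-captured and sequenced with Smart-seq2. Named in the submitters' processing notes are build mm10, Cufflinks 2.0.2 and TopHat2 2.0.4; the role of each and the normalization are not given in the sources used here. The authors deposited 1 table per stage of log2 values, read here as log2(FPKM + 1), a pseudocount of 1, because they start at 0. Without counts, sequencing depth and its precision are unknown.

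Genes reaching an FPKM of 1 in 2 or more sections were tested with limma 3.58.1 in R 4.3.3 (eBayes with trend, 2-sided, Benjamini-Hochberg at 0.05 over all genes tested), with sections 1-4 minus 6-8 at E5.25 and, within its own table, sections 1-8 minus 10-19 at E5.75. The E5.5 table was not used, and 0 value columns lacked a mapped sample. The fit was run on simulated data with known changes. The simulation drew normal noise scaled to sections 6-8 and built in no zeros and no difference in detection. It therefore cannot show how the fit behaves under uneven detection. Genes were named by a rule: the 10 largest differences per direction among passing genes with a mean FPKM of at least 5 and a gene name, the same among genes detected in all 7 sections, 5 per direction for sections 3-4, and up to 3 genes per list by p. Not all genes picked by this rule are described, for example Arid4b, Anp32b, Ezr, Rbx1, Serpinb6a and Tmsb4x. Gpx3 and Trappc9, also picked by it, appear without their group values. Cell type markers are named whatever their values. Kdm5b, Sox11, Tmem8, H19, Id1, Cox7c, Gapdh and some other list members were named outside the p rule. The comparison, the 29 gene lists and the rule were chosen with earlier results of these data known. Alternatives were pseudocounts of 0.1 and 5, other filters, scalings and models, other low sides, and leaving out each section. Promoter windows are from RefSeq. Python 3.11.15, pandas 2.3.3, SciPy 1.17.1 and matplotlib 3.10.9 were used.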

Additional observations from a re-analysis of the deposited data

Results flagged for a closer look

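Among sections 1-4, the highest or lowest section stood apart from the other 3 for 17 of 86 named genes by Dixon's criterion, where chance flags about 1 in 20 groups. For many of them the other 3 sections were listed at 0, so that any value stands apart. Section 1 was high for Fgf5 (log2 value 6.54) and Hand1 (1.45). Section 2 was high for Sox2 (4.68) and Wnt7b (0.66), and low for Dab2 (2.35) and Top2a (3.94). Section 3 was high for Furin (0.15), Fabp3 (0.98), Igf2 (1.10), Spry2 (3.5), Mrps21 (1.58) and Ndufb8 (2.78), and low for Gpx3 (4.10). Section 4 was high for Cldn4 (5.49), Psmb2 (0.53), Lgals1 (0.56) and Htra1 (0.21). Cldn4, a claudin gene of the extraembryonic ectoderm list, had 5.49 in section 4 and 0 in sections 1, 2 and 3, against 4.45, 3.67 and 2.90 in sections 6, 7 and 8. Fgf5, an epiblast gene, had 6.54 in section 1, where Pou5f1, Tdgf1 and Otx2 were listed at 0, against 0.46, 2.29 and 0.27 in sections 6, 7 and 8.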

How the results depend on the processing

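No paired analysis was possible because the 2 groups share no section number. Against 22 higher and 1454 lower genes, the counts were 9 and 911 with no filter, 2 and 1 with an FPKM of at least 1 in all sections, 4 and 128 after quantile normalization, 0 and 0 with detected genes as a covariate, 2 and 27 as a line in section number, 5 and 205 with sections 3-4 and 317 and 2111 with sections 1-2. Without the trend 35 were higher, and with a filter at an FPKM of 5, 811 were lower. Leaving out each section gave 4 to 74 higher and 915 to 2132 lower. At E5.75, 411 were higher and 771 lower with sections 3-8 only, and 414 and 550 after quantile normalization, against 234 and 1163. The E5.25 median difference moved from -1.07 to -0.23 after quantile normalization, to -0.89 with equal FPKM sums without Rn45s and Lars2 (chosen after seeing the data) and to -1.19 with equal medians. Detection kept its direction at every threshold, with differences of -942.5 genes at an FPKM of 5 and -4077 above 0. When 1 section was left out, the differences were -2596.3 to -3341.7. With the 1-sided permutation p doubled, as was done here, none of these designs can reach 0.05. The covariate ended all 55 calls tested of named genes, quantile normalization 35 and sections 3-4 alone 33. Because the covariate nearly repeats the group label, its losses do not show the part of detection. Dnmt3b, not called, had a difference of -0.85 with sections 1-2 alone, against 0.88. The causes were not tested.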

Other observations

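Imprinted genes were lower in sections 1-4 in 8 of 11 tested, with a median difference of -2.29, and 3 of the 11 were listed at 0 in all 4 sections. The list shares Phlda2, Igf2 and H19 with the trophoblast list. Grb10, an imprinted adaptor gene of growth factor receptors, was listed at 0 in sections 1-4, against 2.19, 2.96 and 1.72 in sections 6, 7 and 8. Among S100 genes, which encode small calcium-binding proteins, 4 of 5 were lower. Of keratin and epithelial adhesion genes, 7 of 20 were lower. Krt8, a keratin of simple epithelia, had 0, 1.11, 2.58 and 0 in sections 1, 2, 3 and 4, against 4.36, 4.45 and 4.59, and Cldn3, a claudin gene, was listed at 0, against 3.30, 3.77 and 3.46. Slc2a1, the glucose transporter gene GLUT1, had 1.80, 0, 0.81 and 0.17, against 6.08, 5.43 and 6.12, a difference of -5.18 ± 0.78 (SE, adjusted p = 0.0066, limma). Over the smaller lists, 1 of 6 naive pluripotency genes, 2 of 6 parietal endoderm genes, 2 of 7 basement membrane genes and 4 of 9 stress and immediate early genes were lower. None of these was higher. Over all tested genes 20.3% were lower, and with so few genes the naive pluripotency, parietal endoderm and basement membrane counts are not read against that share. These counts moved with single sections. Without section 6, for example, 2 keratin and adhesion genes and 5 imprinted genes were lower, and without section 3 both counts were 8. None of 4 distal and anterior visceral endoderm genes passed, and no primitive streak gene was tested. Gcm1, a trophoblast transcription factor gene, had 1.38, 2.82, 0.57 and 1.08 in sections 1, 2, 3 and 4 and was listed at 0 in sections 6, 7 and 8, and it did not pass (adjusted p = 0.0961, limma). Its direction was opposite to that of the other trophoblast genes named.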
